A study of Cyprinus carpio with 9 samples.

Results

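The liver genes described here differed more than 10-fold between libraries that came from the same diet. Messenger RNA of adult common carp (Cyprinus carpio) liver was profiled in 9 libraries, 3 for each of 3 foods. The foods were duckweed, a small floating plant, a 1:1 mixture of earthworm and duckweed, and earthworm, an animal food. Per the labels, fish of 492.6 ± 30 g were split at random into groups of 90 with 3 repetitions each, and livers were taken after a 24 h fast under MS-222, a fish anaesthetic. The series' design text speaks of duplicates, whereas 3 libraries a diet are labelled. It is not stated whether a library is 1 fish or a pool, or how long feeding lasted, so p-values measure only the spread between these libraries, which may be technical.

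The library labelled earthworm+duckweed 3 stands apart from the others, so the genes were chosen on the other 8. Between 1765 and 2056 genes differed more than 10-fold between it and each of the 8, against 20 to 154 genes between any pair of the 8. It is left out below unless named, and mixed diet means libraries 1 and 2. In duckweed, mixed diet and earthworm, the highest FPKM (fragments per kilobase of gene model, scaled to sequencing depth) of a gene was divided by its lowest FPKM plus 0.1. A ratio of 10 or more, with a highest FPKM of 20 or more, was required in at least 1 diet, and 278 genes met this. Removing 2 of the 100 most abundant genes and 4 genes that separated duckweed from earthworm by 2 times or more left 272 genes, called variable genes below. They are 272 of 42997 genes listed, and 9.23% of the 2946 genes that reached 20 FPKM in any of the 8 libraries. The levels themselves chose these genes, so their spread within a diet is a description and carries no test.

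The liver turns absorbed food into glucose, fat and blood proteins, and its messenger RNA follows feeding state. In carp the liver is intergrown with exocrine pancreas, the tissue that makes digestive enzymes, so a piece of carp liver can hold both tissues. The carp genome carries many gene pairs left by a whole-genome duplication, and near-identical copies can share reads. The deposited tables carry gene IDs only. By ID, 0 of the 272 variable genes and 0 of all 42997 genes listed matched the reference table of carp genes. No function, pathway, sequence or cell type marker could therefore be looked up, and the labelled tissue could not be checked. In whole tissue, fewer cells of a type and less RNA per cell cannot be told apart.

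Variable genes were found in all 3 diets. The rule was met by 166 of them in duckweed, 37 in the mixed diet and 131 in earthworm, which is 6.54%, 1.92% and 5.97% of the genes that reached 20 FPKM in that diet and were not removed by the exclusions. The mixed diet offers 1 pair of libraries and the other diets 3 pairs each, so these counts are not comparable between diets. In all, 215 genes met the rule in 1 diet, 52 in 2 diets and 5 in all 3. Duckweed alone gave 120 genes, earthworm alone 79 and the mixed diet alone 16, while 36 met it in both duckweed and earthworm but not in the mixed diet.

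Most of these genes had reads in all 8 libraries, and a few were close to on and off. Of the 272, 213 were at 0.5 FPKM or more in all 8 libraries, and 35 had 0 reads in at least 1 library. The median of the largest ratio was 23.3, with 118 genes under 20, 45 at 100 or more and 8 at 1000 or more. The highest library of a variable gene held a median of 1298.5 reads and never fewer than 89, so high values rest on many reads. Their median gene model length was 1500.5 bases, against 1477 bases for the other genes at 20 FPKM or more. Close to the threshold, CAFS_CommonC_G_081199 entered with a ratio of 10.1 in duckweed and CAFS_CommonC_G_087505 with 10.1, while CAFS_CommonC_G_050283 stayed out with 9.93 and CAFS_CommonC_G_088626 with 9.68. In the mixed diet CAFS_CommonC_G_084079 entered with 10.05 and CAFS_CommonC_G_033305 with 10.2, and CAFS_CommonC_G_080921 stayed out with 9.90 and CAFS_CommonC_G_062699 with 9.29. In earthworm CAFS_CommonC_G_084947 entered with 10.03 and CAFS_CommonC_G_078250 with 10.05, and CAFS_CommonC_G_025515 stayed out with 9.98 and CAFS_CommonC_G_029068 with 9.91.

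**Figure D1:**
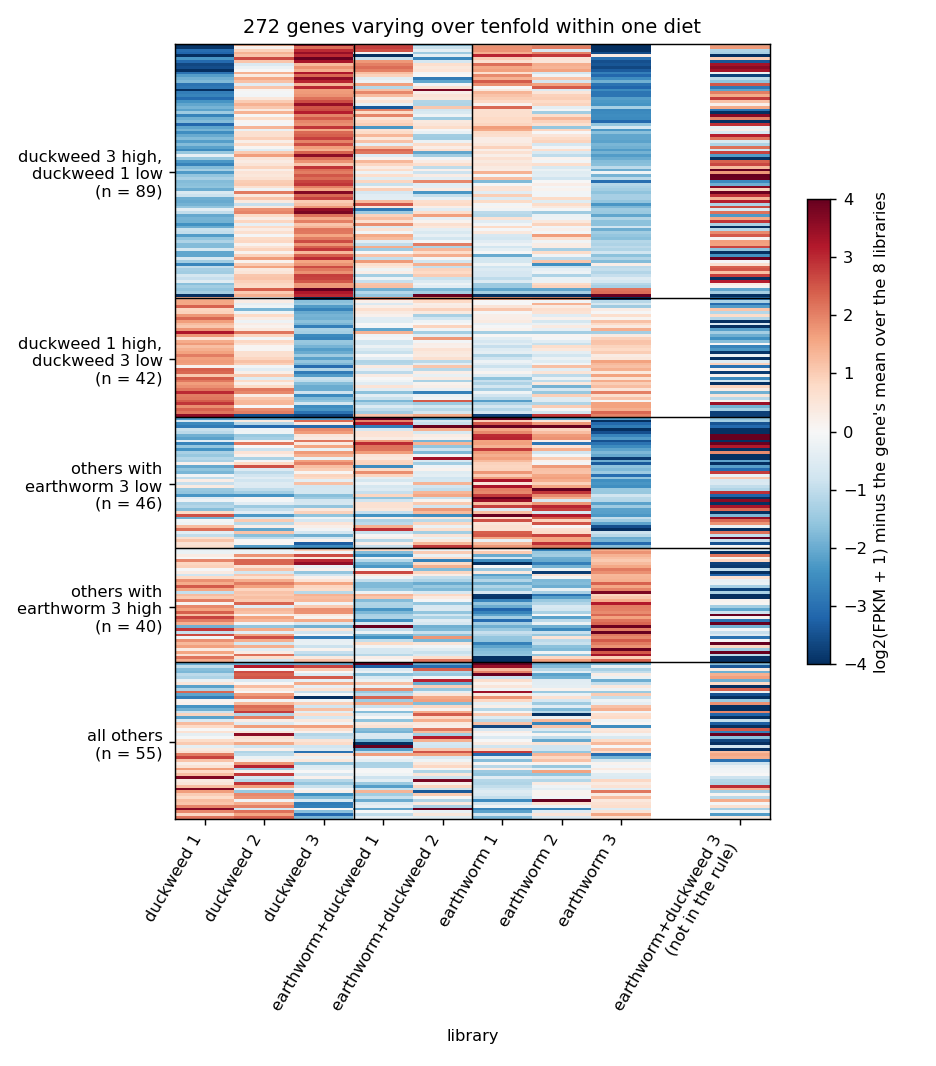
Levels of the 272 variable genes (rows) in each library (columns), as log2(FPKM + 1) minus the gene's mean over the 8 libraries used by the rule, with the library left out by the rule at the right. Rows are grouped by which duckweed or earthworm library was highest or lowest; in the block of 89 genes at the top, duckweed 1 and earthworm 3 are both low (blue), and duckweed 3 is high (red).

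One order of libraries was more frequent than the others in duckweed. Duckweed library 3 was the highest and library 1 the lowest in 89 of the 166 genes, and the reverse held in 42. Duckweed library 2 was the highest in 26 and the lowest in 9. In the 89 genes the median level was 2.84, 25.1 and 90.2 FPKM in duckweed libraries 1, 2 and 3, 27.5 and 15.5 FPKM in mixed-diet libraries 1 and 2, and 20.5, 21.1 and 3.78 FPKM in earthworm libraries 1, 2 and 3. The earthworm medians also parted, with library 3 near duckweed library 1. Of the 89 genes, 57 met the rule in duckweed only. Another 28 met it in earthworm as well, with earthworm library 3 lowest, so the earthworm medians are partly chosen. In the 42 genes the median was 40.4, 16.4 and 2.17 FPKM in duckweed libraries 1, 2 and 3, 7.71 and 13.0 FPKM in mixed-diet libraries 1 and 2, and 8.87, 9.81 and 21.7 FPKM in earthworm libraries 1, 2 and 3.

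The 4 genes with the highest levels among those that met the rule in duckweed belonged to the group of 89. CAFS_CommonC_G_019486 was at 5.93, 664 and 2392 FPKM in duckweed libraries 1, 2 and 3, at 12.0 and 229.5 FPKM in the mixed diet, and at 2493, 2135 and 378 FPKM in earthworm. Within duckweed its ratio was 397, and the duckweed and earthworm libraries overlapped. CAFS_CommonC_G_073851 was at 57.4, 418 and 1434 FPKM in duckweed, 275 and 106 FPKM in the mixed diet, and 257, 61.0 and 26.4 FPKM in earthworm. CAFS_CommonC_G_068309 was at 42.4, 277 and 947 FPKM in duckweed, 197 and 52.7 FPKM in the mixed diet, and 175, 243 and 33.2 FPKM in earthworm. In these 2 genes duckweed library 3 was the highest of the 8 and earthworm library 3 the lowest. The variable genes whose pattern over the 8 libraries was most like that of CAFS_CommonC_G_019486 were CAFS_CommonC_G_049468, CAFS_CommonC_G_050456 and CAFS_CommonC_G_077776, with correlations of log2(FPKM + 1) of 0.82, 0.80 and 0.78 over 8 libraries.

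The 2 largest ratios in duckweed came from genes with 0 reads in duckweed library 3. CAFS_CommonC_G_025752 had 158 FPKM (1293 reads) in duckweed library 1, but 0.121 FPKM (1 read) in library 2 and 0 reads in library 3. It was at 28.7 and 36.8 FPKM in the mixed diet and at 0, 92.6 and 52.2 FPKM in earthworm libraries 1, 2 and 3. Each diet but the mixed one thus had both a high library and one at 0 reads, which in duckweed library 3 allows up to 0.386 FPKM (3 reads). CAFS_CommonC_G_079479 was at 42.6, 13.2 and 0 FPKM in duckweed, 57.9 and 50.8 FPKM in the mixed diet, and 52.2, 54.3 and 0.143 FPKM in earthworm, the last value being 1 read. It was low only in duckweed library 3 and earthworm library 3 among the 8.

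**Figure D2:**
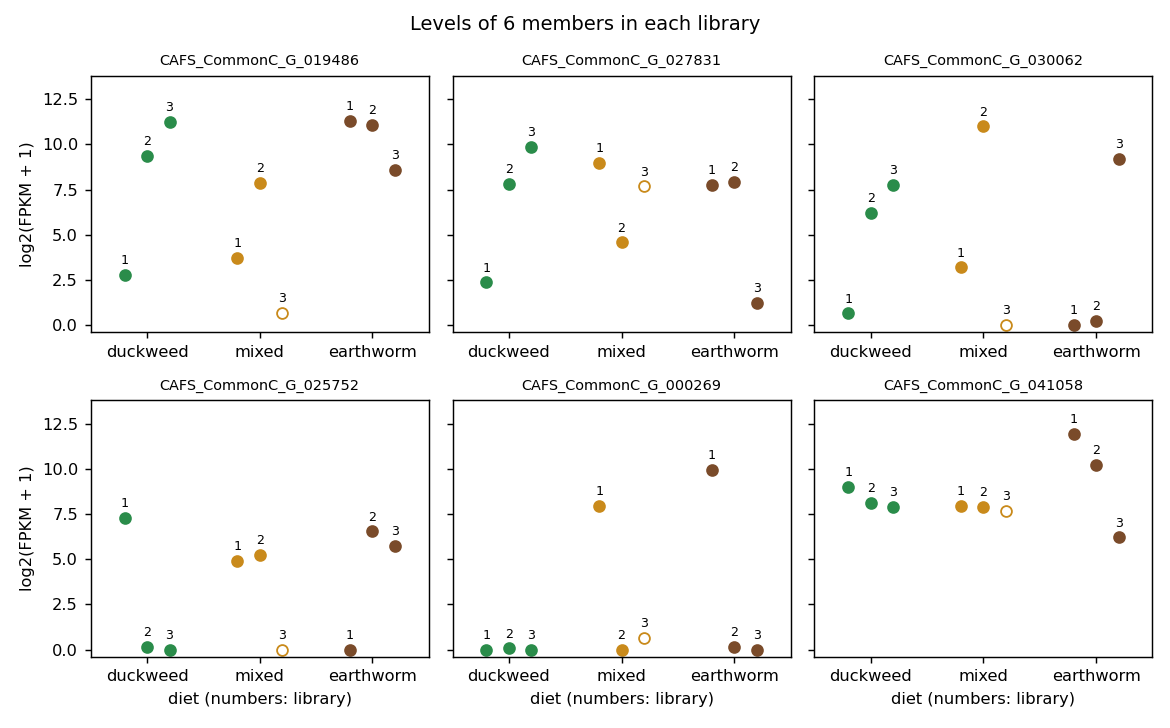
Level of 6 variable genes, as log2(FPKM + 1), in each library of the duckweed, mixed and earthworm diets; the number beside a point is the library, and the open point is the library left out by the rule. CAFS_CommonC_G_019486 spans 5.93 to 2392 FPKM in duckweed, and CAFS_CommonC_G_000269 is high in earthworm library 1 (989 FPKM) and mixed-diet library 1 (245 FPKM) only.

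Duckweed library 2 lay at a narrow range of places between the other duckweed libraries in the 89 genes. With the level of library 1 set to 0% and that of library 3 to 100%, the median place of library 2 was 26.0% (quartiles 23.3 and 32.2%, range 12.8 to 64.2%), and 72 of the 89 genes lay from 20 to 40%. In the 42 genes of the reverse order, counted from library 3 to library 1, the median place of library 2 was 39.2% (quartiles 27.7 and 50.1%), and 15 lay from 20 to 40%. For comparison, in 45 genes with earthworm library 1 highest and library 3 lowest, earthworm library 2 lay at a median of 40.7% with quartiles of 23.0 and 63.2%. In 30 genes with earthworm library 3 highest and library 1 lowest, it lay at a median of 7.56% with quartiles of 2.82 and 12.2%. The places in these 30 genes lay mostly next to the 0% bound, with a range of 0 to 91.1%. Their close quartiles are therefore not directly comparable with those of duckweed library 2 in the 89 genes. Genes outside the set, with a duckweed ratio of 3 to 10 and the order of the 89, had library 2 at a median of 26.7% (213 genes), and those with the reverse order at 44.7% (234 genes). The rule used the highest and lowest library, not the place of the middle one. Whether duckweed library 2 is independent of libraries 1 and 3 was not tested, and n = 3 and the p-values take it to be.

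**Figure D3:**
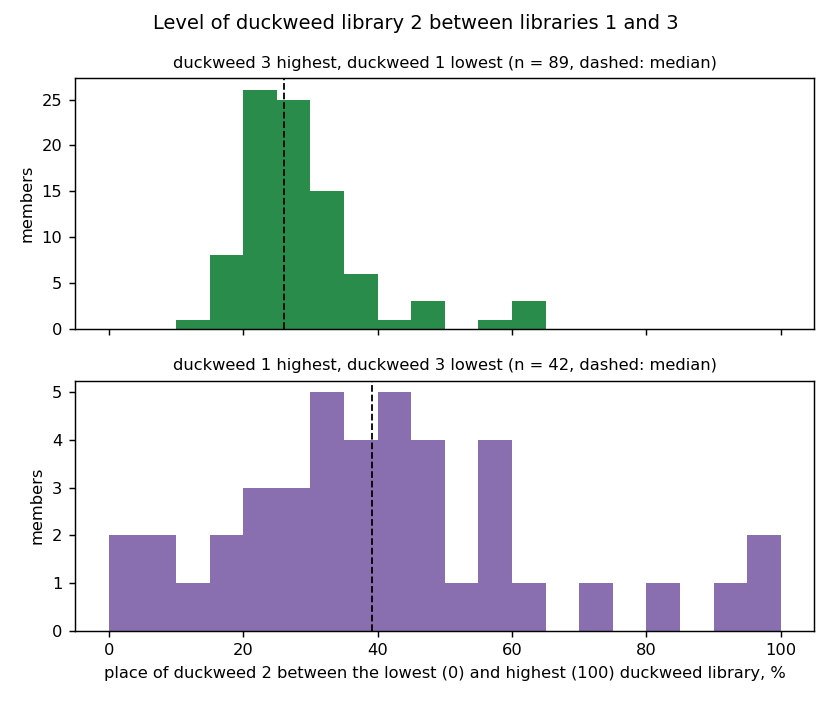
Place of duckweed library 2 between the lowest (0%) and the highest (100%) duckweed library, with the number of variable genes per bin of 5 percentage points; the vertical scales differ. The 89 genes with library 3 highest gather around their median of 26.0%, and the 42 genes with library 1 highest spread around 39.2%.

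In earthworm, library 3 was most often at one end. It was the lowest in 75 of the 131 genes and the highest in 43. In the 75 genes the median was 6.15, 22.9 and 68.2 FPKM in duckweed libraries 1, 2 and 3, 48.4 and 22.7 FPKM in mixed-diet libraries 1 and 2, and 58.8, 54.3 and 2.34 FPKM in earthworm libraries 1, 2 and 3. In the 43 genes it was 39.8, 40.4 and 22.0 FPKM in duckweed, 7.06 and 9.37 FPKM in the mixed diet, and 2.28, 5.62 and 56.3 FPKM in earthworm. The place of earthworm library 3 is set by how these sets were formed. In the first set duckweed library 1 had the next lowest median. However, 33 of the 75 genes met the rule in duckweed as well, and 30 of these had duckweed library 1 lowest. The low duckweed median is therefore partly chosen too.

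The 4 genes with the highest levels among those that met the rule in earthworm all had library 3 as the lowest. CAFS_CommonC_G_041058 was at 513, 276 and 241 FPKM in duckweed, 245 and 235 FPKM in the mixed diet, and 3904, 1209 and 73.3 FPKM in earthworm. The 5 duckweed and mixed-diet libraries lay between 235 and 513 FPKM for this gene, and the earthworm libraries lay on both sides of them. CAFS_CommonC_G_041059, the next ID, had the same pattern with a correlation of 1.00 over 8 libraries, at 2926, 836 and 54.6 FPKM in earthworm. CAFS_CommonC_G_041016 and CAFS_CommonC_G_018619 followed with correlations of 0.91 each. CAFS_CommonC_G_062881 was at 259, 862 and 1959.8 FPKM in duckweed, 1083 and 765 FPKM in the mixed diet, and 2046, 687 and 180.4 FPKM in earthworm. CAFS_CommonC_G_010386 was at 218, 412 and 1486 FPKM in duckweed, 688 and 302 FPKM in the mixed diet, and 1766, 1097 and 39.7 FPKM in earthworm. In both of these genes duckweed library 1 was the lowest of its diet as well.

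The largest ratios in earthworm were of genes near 0 in at least 1 library. CAFS_CommonC_G_000269 had 989 FPKM (18069 reads) in earthworm library 1, 0.0995 FPKM (2 reads) in library 2 and 0 reads in library 3, which allows up to 0.140 FPKM. It had 245 FPKM and 0 reads in the mixed diet, and 1 read in the 3 duckweed libraries together. CAFS_CommonC_G_017294 repeated this pattern, with 435 FPKM in earthworm library 1, 175 FPKM in mixed-diet library 1 and at most 1 read in each of the other 6 of the 8 libraries. CAFS_CommonC_G_080404 went the other way, at 941, 202 and 769 FPKM in duckweed, 354 and 1524.5 FPKM in the mixed diet, and 0.410, 1064 and 1764 FPKM in earthworm. Earthworm library 1 alone among the 8 was low for this gene.

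In the mixed diet 22 genes were higher in library 2 and 15 in library 1. CAFS_CommonC_G_008837 had 590.3 FPKM (4221 reads) in mixed-diet library 1 and 0 reads in library 2. Outside the mixed diet it reached 56.2 FPKM in earthworm library 3, with 0 reads in the other earthworm libraries and 2 reads in the duckweed libraries together. CAFS_CommonC_G_013599 was at 0.255 and 143 FPKM in the mixed diet and at 525, 208 and 0.248 FPKM in earthworm, with 1 read in all of duckweed. The genes most like CAFS_CommonC_G_030062, which had the highest level of the mixed diet, were CAFS_CommonC_G_054446, CAFS_CommonC_G_081328 and CAFS_CommonC_G_027280, with correlations of 0.82, 0.77 and 0.76 over 8 libraries. Within the mixed diet their ratios were only 2.03, 1.10 and 1.75, against 249 for CAFS_CommonC_G_030062, so they did not meet the rule there.

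The 5 genes that met the rule in every diet did not share 1 order of libraries. CAFS_CommonC_G_030062 was at 0.554, 72.6 and 219 FPKM in duckweed, 8.11 and 2046 FPKM in the mixed diet, and 0, 0.149 and 578 FPKM in earthworm. CAFS_CommonC_G_027831 was at 4.11, 223 and 933 FPKM in duckweed, 495 and 22.7 FPKM in the mixed diet, and 217, 242 and 1.31 FPKM in earthworm. The first had earthworm library 3 at the top of its diet and the second had it at the bottom. CAFS_CommonC_G_024718 followed the second, at 5.76, 114 and 465 FPKM in duckweed, 668 and 53.4 FPKM in the mixed diet, and 351, 415 and 4.08 FPKM in earthworm. CAFS_CommonC_G_050456 was at 20.9, 166 and 453 FPKM in duckweed, 6.72 and 166 FPKM in the mixed diet, and 394, 60.4 and 30.7 FPKM in earthworm. CAFS_CommonC_G_004405 was the only one of the 5 with duckweed library 3 lowest, at 6.96, 49.1 and 0.238 FPKM in duckweed, 0.623 and 27.7 FPKM in the mixed diet, and 1.87, 11.4 and 30.9 FPKM in earthworm.

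Genes that met the rule in 1 diet and reached 20 FPKM in another met it there more often than all genes. Most variable genes, 215 of the 272, met it in 1 diet only. Of the duckweed genes, 101 reached 20 FPKM in earthworm, and 41 of these (40.6%) also had a ratio of 10 or more there, where 5.97% of all genes at that level did. Of the earthworm genes, 95 reached 20 FPKM in duckweed, and 41 of them (43.2%) had such a ratio, where 6.54% of all genes did. In the mixed diet the share was 12.0% of 83 duckweed genes and 20.3% of 79 earthworm genes, beside 1.92% of all genes. Over all 6 combinations of diets the share was 33.1% (134 of 405), where a gene shared by a pair of diets counts in both directions. It became 13.7% without earthworm library 3 and 15.96% without duckweed library 1. Fewer genes met the rule at all in these settings. Those that met it in earthworm went from 131 to 20 without earthworm library 3. In duckweed they went from 166 to 20 without duckweed library 1. The share over all genes therefore falls as well, and the lower shares alone do not show how far the excess depends on these 2 libraries.

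Where duckweed library 1 was low, earthworm library 3 was often low too. Genes that met the rule in duckweed only were not chosen by their earthworm order. In the 57 of these with duckweed library 3 highest and library 1 lowest, earthworm library 3 was the lowest of its diet in 47 (82.5%). Among 1079 other genes at 20 FPKM or more with duckweed library 3 above library 1, it was the lowest in 44.9%. After scaling between libraries (trimmed mean of M values) these shares were 89.5% and 59.7%. For 37 genes with duckweed library 1 highest and library 3 lowest, earthworm library 3 was the highest in 27 (73.0%), beside 63.2% of 1472 other genes, and after scaling in 62.2% beside 34.8%. Starting from the 35 genes that met the rule in earthworm only with library 3 lowest, duckweed library 1 was the lowest of its diet in 18 (51.4%), near the 51.9% of 697 other genes, and after scaling in 21 of the 35 beside 57.1%. In the 37 such genes with earthworm library 3 highest, duckweed library 1 was the highest of its diet in 21 (56.8%), below the 64.1% of 1262 other genes, and after scaling in 51.4% beside 52.3%.

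**Figure D4:**
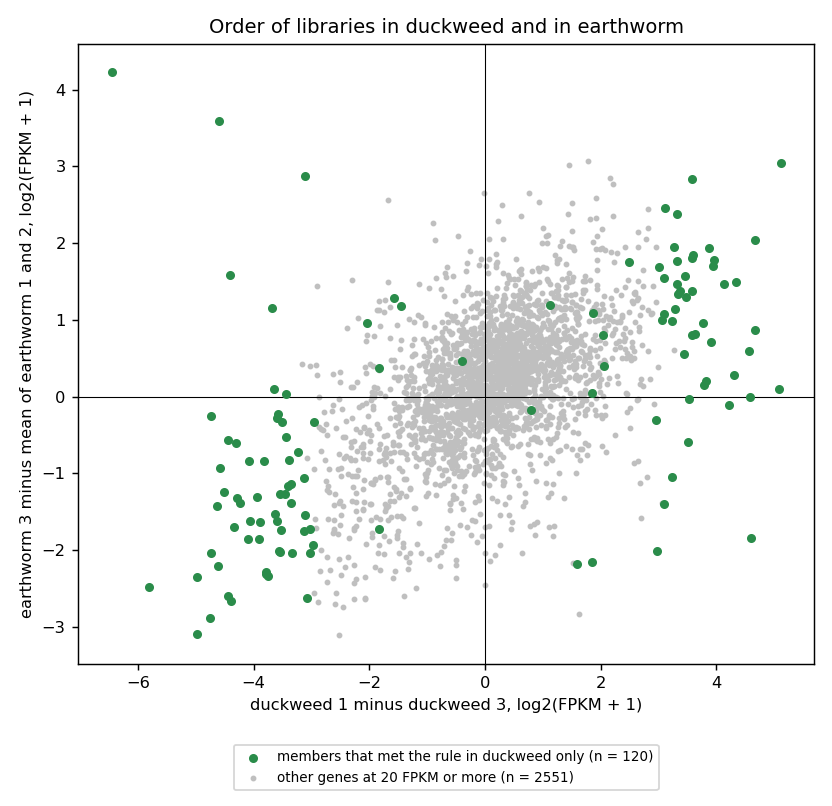
For each gene, the level in duckweed library 1 minus that in library 3 (x axis) and the level in earthworm library 3 minus the mean of libraries 1 and 2 (y axis), both in log2(FPKM + 1). Green points are the 120 genes that met the rule in duckweed only and grey points 2551 other genes at 20 FPKM or more; of 57 green genes with duckweed library 3 highest and library 1 lowest, 47 had earthworm library 3 as the lowest of its diet.

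Correlations between libraries across the 272 genes ranged widely. The highest correlations of log2(FPKM + 1) among the 8 libraries were within a diet. They were 0.69 between duckweed libraries 2 and 3 and 0.68 between earthworm libraries 1 and 2. Also within a diet, values of 0.11 between duckweed libraries 1 and 3 and 0.04 between earthworm libraries 1 and 3 were found. Between duckweed library 1 and earthworm library 3 the correlation was 0.64. Over the 2674 other genes at 20 FPKM or more, this last pair correlated at 0.94. That value was not particular to it: duckweed library 2 with earthworm library 3, and earthworm libraries 1 and 2, were at 0.94 as well. Duckweed libraries 1 and 3 correlated at 0.84 over those genes, and earthworm libraries 1 and 3 at 0.90. Genes are not independent replicates, the variable genes were chosen for their differences within a diet, and these correlations carry no p.

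The number of genes that differed 10-fold or more overlapped between pairs of the same diet and pairs of different diets. Counting all genes with a ratio of 10 or more and a highest FPKM of 20 or more in the pair, the 7 pairs of the same diet held 20 to 148 genes (median 48), and the 21 pairs of different diets held 31 to 154 (median 57). After scaling the ranges were 16 to 159 and 27 to 179. The fewest were between duckweed libraries 2 and 3, with 20, and the next between earthworm libraries 1 and 2, with 21. Duckweed library 1 differed in 148 genes from duckweed library 3 and in 35 from earthworm library 3. Every same-diet pair with 48 genes or more held duckweed library 1 or earthworm library 3. Among pairs without these libraries, those of the same diet held 20, 21 and 37 genes. Those of different diets held 31 to 95. These libraries were singled out after seeing the data, and the difference between the kinds of pair was not tested.

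**Figure D5:**
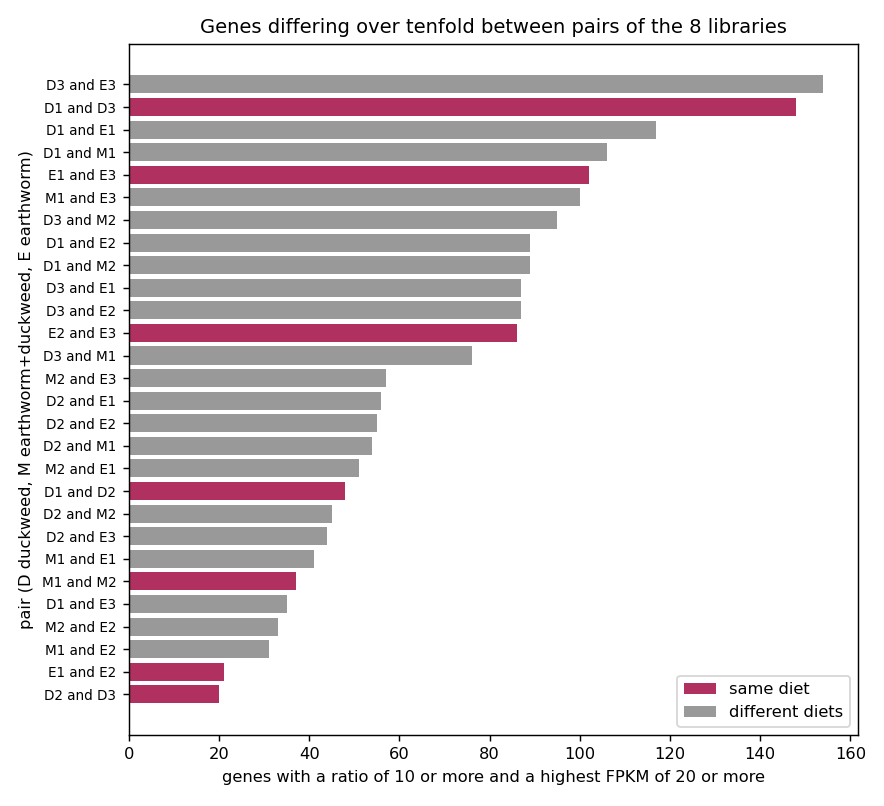
Number of genes with a ratio of 10 or more and a highest FPKM of 20 or more in each pair of the 8 libraries (D, duckweed; M, earthworm+duckweed; E, earthworm), with pairs of the same diet in red and pairs of different diets in grey. The pairs D2 and D3 (20 genes) and E1 and E2 (21 genes) are at the low end, and D1 and D3 (148 genes) is next to the high end.

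The variable genes took a small part of the reads. They held 1.55, 2.21 and 4.36% of reads in duckweed libraries 1, 2 and 3, 2.51 and 2.11% in mixed-diet libraries 1 and 2, and 3.35, 2.25 and 1.37% in earthworm libraries 1, 2 and 3. The means were 2.70% ± 1.47 (SD, n = 3) in duckweed, 2.31% ± 0.28 (SD, n = 2) in the mixed diet and 2.33% ± 0.99 (SD, n = 3) in earthworm, and the diets overlapped. Duckweed library 1 and earthworm library 3 were the lowest of the 8. The same levels chose the genes. Duckweed library 1 was the lowest of its diet in 101 of the 166 genes that met the rule there. Earthworm library 3 was the lowest in 75 of 131, so nothing is read from these low shares. Totals were 9915585 to 11883466 reads, with 11750093 in duckweed library 1 and 11630872 in earthworm library 3. These 2 libraries also had the largest factors of the trimmed-mean scaling, 1.25 and 1.21. Whether depth or scaling bears on the share of reads was not tested.

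The diets were also compared over all genes, although a wide spread within a diet and the removal of genes that separate duckweed from earthworm were part of the rule. limma, fitted over 20105 genes of the 8 libraries, called 0 genes (0%) at an adjusted p under 0.05 in any of the 3 comparisons of diets. Of the 272 variable genes 264 passed the filter on low values and 8 did not. Between duckweed and earthworm, 23 of the 264 (8.71%) had an unadjusted p under 0.05, beside 4.81% (967) of all genes tested. This contrast was part of how the genes were chosen, so nothing is read from that count. Between the mixed diet and earthworm 6 genes (2.27%) did, beside 5.45% (1096), and between duckweed and the mixed diet 25 (9.47%) did, beside 6.55% (1316). The spread within a diet that chose the genes enters these counts too, so nothing is read from them either. With limma-voom, run on reads recovered from FPKM, 0 genes were called, with 855, 944 and 1251 at an unadjusted p under 0.05 in the same order of comparisons. The median standard error of a variable gene was 0.98 on the log2 scale between duckweed and earthworm, against 0.31 over all genes, as its choice entails. Over the variable genes the log2 fold change of duckweed against earthworm had a median of 0.29, beside 0.03 over all genes tested. In FPKM as deposited it was 0.46 beside 0.15. With 1 library left out, the median over the variable genes went from -0.11 (without earthworm library 3) to 0.78 (without duckweed library 1). A high library in duckweed alone chose 120 genes and one in earthworm alone 79, so nothing is read from this median. The 3 comparisons share libraries in pairs.

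The variable genes with the smallest unadjusted p values are given with their levels, though none passed the adjusted threshold. CAFS_CommonC_G_066018 was at 67.7, 88.4 and 144 FPKM in duckweed, 7.13 and 1.73 FPKM in the mixed diet, and 2.20, 3.42 and 36.3 FPKM in earthworm. Its duckweed libraries lay above all others, the left-out library at 31.5 FPKM included. The log2 fold change was 3.43 (SE 0.81, adjusted p = 0.758, limma) against earthworm and 4.12 (SE 0.91, adjusted p = 0.402, limma) against the mixed diet. CAFS_CommonC_G_066018 met the rule only through earthworm library 3, so nothing is read from its difference from earthworm. CAFS_CommonC_G_001128 was at 6.35, 6.15 and 10.6 FPKM in duckweed, 65.0 and 106 FPKM in the mixed diet, and 251, 139 and 20.04 FPKM in earthworm. Its duckweed libraries lay below the other 5 of the 8, but the left-out library, at 2.996 FPKM, was lower still. The gene had a log2 fold change of -3.58 (SE 0.91, adjusted p = 0.817, limma) against earthworm and -3.54 (SE 1.01, adjusted p = 0.556, limma) against the mixed diet, which was -1.70 with the left-out library included. CAFS_CommonC_G_029834 was at 193, 169 and 210.4 FPKM in duckweed, 206 and 142 FPKM in the mixed diet (2.72 FPKM in the left-out library), and 4.69, 9.77 and 151 FPKM in earthworm. Earthworm library 3 alone of its diet lay within the range of the other 5 libraries used. CAFS_CommonC_G_040125 was at 143, 199 and 122 FPKM in duckweed, 1.43 and 42.9 FPKM in the mixed diet, and 88.9, 100.2 and 172 FPKM in earthworm. Both mixed-diet libraries were below all duckweed and earthworm libraries, as was the left-out one at 0.218 FPKM, with a log2 fold change of -3.47 (SE 0.93, adjusted p = 0.86, limma) against earthworm. Without earthworm library 3, 11 of 19206 genes were called between duckweed and earthworm, 5 of them among the 259 variable genes tested. They included CAFS_CommonC_G_029834 (log2 fold change 4.30, adjusted p = 0.0105, limma) and CAFS_CommonC_G_001128 (log2 fold change -4.79, adjusted p = 0.0206, limma). Both of these genes met the rule only through earthworm library 3. Leaving out that library removes the spread that chose them, so nothing is read from their calls.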

How the data were processed

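The deposited files give an FPKM value for each gene ID, per the file headers. The submitters' processing notes name HTSeq 0.6.0. Aligner, build, annotation and strand setting were not given in the sources used here, so overlapping, antisense and near-identical genes cannot be told apart. The planned test already assumed FPKM. The genes and lists were chosen with earlier results of these data known.

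Low FPKM values step by what 1 read is worth, from which reads, totals and gene lengths (searched from 60 to 40000 bases, tolerance 0.002 reads) were recovered for 42996 of 42997 genes, 99.84% or more of each total. On simulated reads 9 of 9 totals were recovered. A count of 0 allows up to 3 reads; such limits cover counting error only. Read counts of library pairs within a diet gave a chi-square of 36.4 or more for each degree of freedom (39.0, 43.6 and 86.1 in duckweed, the last between libraries 1 and 3), so none was treated as a copy; independence of the libraries was not tested.

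The rule used FPKM as deposited. Where all libraries of one single diet and the lowest of the other were at 0, the gene was kept (2 genes). limma 3.58.1 (R 4.3.3) was fitted on log2(scaled FPKM + 1), a pseudocount of 1, with trimmed-mean scaling on recovered reads (30% of ratios and 5% of levels trimmed; factors 0.739 to 1.25), 1 mean per diet, a trended and robust variance prior, and Benjamini-Hochberg adjustment of two-sided p-values over every gene that 3 libraries or more held at 1 FPKM or above. It was tested on simulated data. Named genes were, per diet, the 4 with the largest ratio, the 4 with the highest FPKM, the 3 most like the highest, 2 on each side of the threshold, those that met the rule in all 3 diets, and at most 2 per direction in a diet comparison. Alternatives were other scalings, thresholds, filters, limma-voom, the replicate number as a block, and each library left out. Python 3.11.15 was used.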

Additional observations from a re-analysis of the deposited data

Results flagged for a closer look

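The library labelled earthworm+duckweed 3 took no part in the choice of the genes or in the comparisons. In 51 of the 272 variable genes (18.8%) it was higher than all 8 other libraries, and in 67 (24.6%) lower than all of them, beside 28.6% and 36.8% of 2674 other genes at 20 FPKM or more. It had 0 reads in 26 variable genes and reached 20 FPKM in 96. Among the named genes, CAFS_CommonC_G_018619 was at 1819 FPKM in this library, against 2.55 to 40.5 FPKM in the other 8 libraries, and CAFS_CommonC_G_033305 was at 144 FPKM, against 11.2 to 115 FPKM. CAFS_CommonC_G_019486, by contrast, was at 0.595 FPKM there, and CAFS_CommonC_G_068309 at 636 FPKM, between duckweed libraries 2 and 3. No group of 4 or more samples was available to look for single samples far from the rest.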

How the results depend on the processing

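The 272 genes became 613 with a ratio of 5, 154 with a ratio of 20, 155 with a highest FPKM of 50, and 2345 with the library labelled earthworm+duckweed 3 included. With scaled FPKM there were 300, of which 228 were among the 272. A reading of the exclusion that drops genes at 0, chosen after seeing the data, gave 270. Leaving out 1 library gave 163 to 255 genes, the fewest without duckweed library 1 (163), duckweed library 3 (171) and earthworm library 3 (195). Among genes at the required FPKM in another diet, the share that met the rule there, 33.1%, was 38.4% with a highest FPKM of 50. It was 13.7 to 33.6% with 1 library left out. limma called 0 genes in each comparison under every other scaling, pseudocount and filter, with limma-voom and with 9 libraries. With 1 library left out it called 0 to 11 genes between duckweed and earthworm, 0 to 1 between the mixed diet and earthworm and 0 to 1 between duckweed and the mixed diet. Without mixed-diet library 2, CAFS_CommonC_G_040125 had a log2 fold change of -5.51 for the mixed diet against earthworm and 5.73 for duckweed against the mixed diet. This gene met the rule only through its mixed-diet libraries, at 1.43 and 42.9 FPKM. Leaving out library 2 removes the spread that chose it, so nothing is read from these values. In such fits the lone mixed-diet library is assumed to vary like the other diets. The replicate block called 0 genes in each comparison. The labels do not say whether libraries with the same number are paired. Deviations from the diet mean correlated at -0.41 to -0.01 between libraries with the same number. Between libraries with different numbers they correlated at -0.19 to 0.35. The deviations within a diet sum to 0, which constrains these values, so they cannot show whether the numbers pair libraries. The cause of these changes was not tested beyond the fewer libraries or genes that each setting uses. Low levels rest on few reads: 1 read in a gene of median length is a small part of 1 FPKM, and a ratio against a library at 0 reads depends on the 0.1 added.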

Other observations

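Some variable genes had consecutive ID numbers, in 6 pairs. The files do not say whether the numbers follow genome position. In 5 of the 6 pairs the levels moved together over the 8 libraries, with correlations of log2(FPKM + 1) of 0.89 to 1.00, and in the sixth, CAFS_CommonC_G_033304 and CAFS_CommonC_G_033305, the correlation was 0.22. The level of CAFS_CommonC_G_041058 divided by that of CAFS_CommonC_G_041059 stayed between 1.05 and 1.58 in all 8 libraries while both genes met the rule in earthworm. CAFS_CommonC_G_029833 and CAFS_CommonC_G_029834 were both lowest in earthworm library 1 among the 8, at 2.95 and 4.69 FPKM, with a level ratio of 0.526 to 1.24; the left-out library held 0.948 and 2.72 FPKM. Whether such pairs share reads was not tested.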
